A study of Homo sapiens with 18 samples.

Results

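Immediate early genes are switched on within minutes of a stimulus, from transcription factors that are already in the cell, and need no new protein to be made. FOS and JUN family proteins pair to form AP-1, which binds the promoters of genes for proliferation, invasion and matrix breakdown, and FOSL1 is a late and long-lived member of the family. In cultured and excised cells the same genes answer to serum, growth factors acting through ERK, stress kinases and the handling of the tissue itself, so their mRNA levels are often read as a record of recent stimulation.

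A set of 10 genes of this kind was described across all groups of the series. The members were the rows of the deposited expression table with the gene names FOS, FOSB, FOSL1, JUN, JUNB, EGR1, ATF3, IER2, IER3 and DUSP1. All 10 were found, out of 50119 genes. Each was above the filter on low values in all 8 pairwise comparisons, so none was lost to low expression.

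The series held 18 poly(A) RNA sequencing libraries of 1 human osteosarcoma cell line, Saos-2 (written Soas-2 in the sample records), of genotype WT, with 3 libraries in each of 6 groups. D-2 was flat culture, D-3 was cells embedded in Matrigel, and DP-3 was tissue printed from a methacrylated gelatin and alginate bioink, all kept in vitro for 14 days, while DP-3 day 1 was the printed tissue after 1 day. FIT was fresh tumor that had grown in vivo for 14 days under the skin of 4-week-old female BALB/c nude mice, implanted with Matrigel. IT was pieces of such tumors cultured on Matrigel for 14 days. The paper states that the excised tumor was split, with 1 part cultured as IT and the rest used fresh. IT and FIT libraries may therefore share tumors. Which of them do is not given, and the test treated them as independent. FIT was the control of the study, and 5 of the comparisons below share its 3 libraries. The sources do not say whether the libraries of a group came from separate cultures or animals, so p-values measure only the spread between these libraries, which may be technical.

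Deposited estimated counts summed to between 23721666 in FIT replicate 3, the shallowest library, and 79082786. The DP-3 day 1 libraries stood apart, with 24694 to 24791 genes at an FPKM of at least 0.1 against 17716 to 22322 in the other groups. FPKM is the read coverage of a gene per length and per depth, and is the scale of every level below. Some of the osteoblast markers for which Saos-2 is known were low or missing, which goes against the label. The group means of ALPL, the bone alkaline phosphatase, were 0.00909 to 0.0881 FPKM, and IBSP, the bone sialoprotein, was listed at 0 in every library outside DP-3 day 1. Of all 8 osteoblast markers read, 2 to 4 had a mean of at least 1 FPKM in each group. The 8 summed to 23.9 to 25.9 FPKM in FIT and 5.12 to 16.3 elsewhere. COL1A1, a collagen gene among them, was at 19.6 to 21.0 FPKM in FIT. FIT and IT could also hold mouse cells. The summed FPKM of 6 endothelial markers was 3.90 to 6.52 in IT and FIT and 1.06 to 2.36 elsewhere. Only 1 of them had a mean of at least 1 FPKM in IT or in FIT. The macrophage markers AIF1 and TYROBP were listed at 0 in FIT, but also in D-2 and DP-3. All 8 macrophage markers summed to 19.98 to 56.2 FPKM in FIT and 43.2 to 45.9 in D-2. Skeletal muscle markers summed to 0.293 to 4.999 FPKM in FIT and keratinocyte markers to 21.5 to 41.3. Both were above D-2, at up to 0.141 and 20.2, but overlapped IT. Sums of fibroblast, adipocyte and red blood cell markers in FIT overlapped those of IT as well. In such bulk RNA, fewer cells of a type and less RNA per cell cannot be told apart.

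Promoter sequence is shown for 5 of the members because FOS, FOSB and JUNB were all higher in DP-3 day 1 than in D-2, EGR1 rose between day 1 and day 14 of printed culture while FOS and FOSB fell, and DUSP1 encodes the phosphatase that ends the signal. RefSeq promoter entries were found for 8 of the 10 members, and 9 entries in all, as ATF3 had both an upstream and a downstream start. Each line gives the 150 bases before the RefSeq start on the GRCh38.p14 build, 5′ to 3′ on the strand of the gene. Capitals mark TATAAA in FOS, FOSB, JUNB and DUSP1, the CArG box bound by serum response factor in EGR1, and TGACGTCA, the cAMP response element, in DUSP1.
FOS, chr14:75278678-75278827, plus strand: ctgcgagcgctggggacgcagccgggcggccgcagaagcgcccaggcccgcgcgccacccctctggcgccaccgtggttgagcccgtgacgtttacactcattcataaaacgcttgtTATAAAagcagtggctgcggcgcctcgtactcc
FOSB, chr19:45467846-45467995, plus strand: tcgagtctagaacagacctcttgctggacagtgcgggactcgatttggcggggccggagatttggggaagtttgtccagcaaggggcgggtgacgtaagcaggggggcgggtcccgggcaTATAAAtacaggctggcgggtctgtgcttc
JUNB, chr19:12791336-12791485, plus strand: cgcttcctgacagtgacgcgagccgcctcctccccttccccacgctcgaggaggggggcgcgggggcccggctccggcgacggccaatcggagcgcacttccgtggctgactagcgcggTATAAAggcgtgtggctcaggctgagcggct
EGR1, chr5:138465329-138465478, plus strand: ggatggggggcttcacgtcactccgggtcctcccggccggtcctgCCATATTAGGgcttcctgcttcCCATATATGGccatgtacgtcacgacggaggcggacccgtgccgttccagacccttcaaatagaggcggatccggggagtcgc
DUSP1, chr5:172771196-172771345, minus strand: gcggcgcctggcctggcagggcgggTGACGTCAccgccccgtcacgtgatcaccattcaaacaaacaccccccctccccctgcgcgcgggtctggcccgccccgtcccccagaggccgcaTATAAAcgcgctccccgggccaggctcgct

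The letters TATAAA lay between 25 and 33 bases before the start in FOS, FOSB, JUNB and DUSP1. Of 35116 promoters, 6.80% held TATAAA somewhere in the 250 bases before their start, read on the strand of the gene only. EGR1 held 2 CArG boxes, and 1.16% of all promoters held at least 1. The cAMP response element of DUSP1 lay 125 to 118 bases before its start, and 1.65% of all promoters held these letters. The related letters TGACATCA were found 67 to 60 bases before the start of JUN and 123 to 116 bases before the upstream start of ATF3. They were not found before the downstream start of ATF3. Of all promoters, 2.37% held them. TGACTCA, the AP-1 site itself, was in none of the promoters found for the members and in 4.2% of all promoters. A match is a run of letters and does not show that a factor binds.

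The members did not move as a block across the culture methods. FOS and FOSB, the short-lived partners of JUN, had their lowest group means in the cell cultures kept for 14 days and their highest in newly printed tissue. FOSL1 was far more abundant than both and had its lowest group means in the tumor and the tumor pieces. ATF3, a stress-induced repressor and activator of the CREB family, was highest in Matrigel culture. EGR1 and IER3 were each higher in printed tissue after 14 days than after 1 day, against FOS, FOSB and ATF3. Levels differed among the 6 groups for 9 of the 10 members, with IER2 the exception (adjusted p = 0.617 by the quasi-likelihood test of edgeR, adjusted by the Benjamini-Hochberg method over all genes tested). Among all 25977 genes tested, 37.3% passed the same test. Without the DP-3 day 1 libraries 8 members did, beside 7794 of the 24337 genes then tested. The adjusted p-values of the 9 ran from 6.03e-05 for ATF3 to 0.0428 for DUSP1. FPKM ranges of 3 libraries that did not overlap were common over all genes: 53.2% between D-2 and D-3, 60.4% between D-2 and DP-3 day 1, and 45.2% between DP-3 day 1 and DP-3. Among the members, 6, 9 and 9 of 10 did not overlap in these pairs. Against FIT the shares of all genes were 49.9% for D-2, 32.4% for D-3, 34.1% for DP-3 and 34% for DP-3 day 1.

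**Figure D1:**
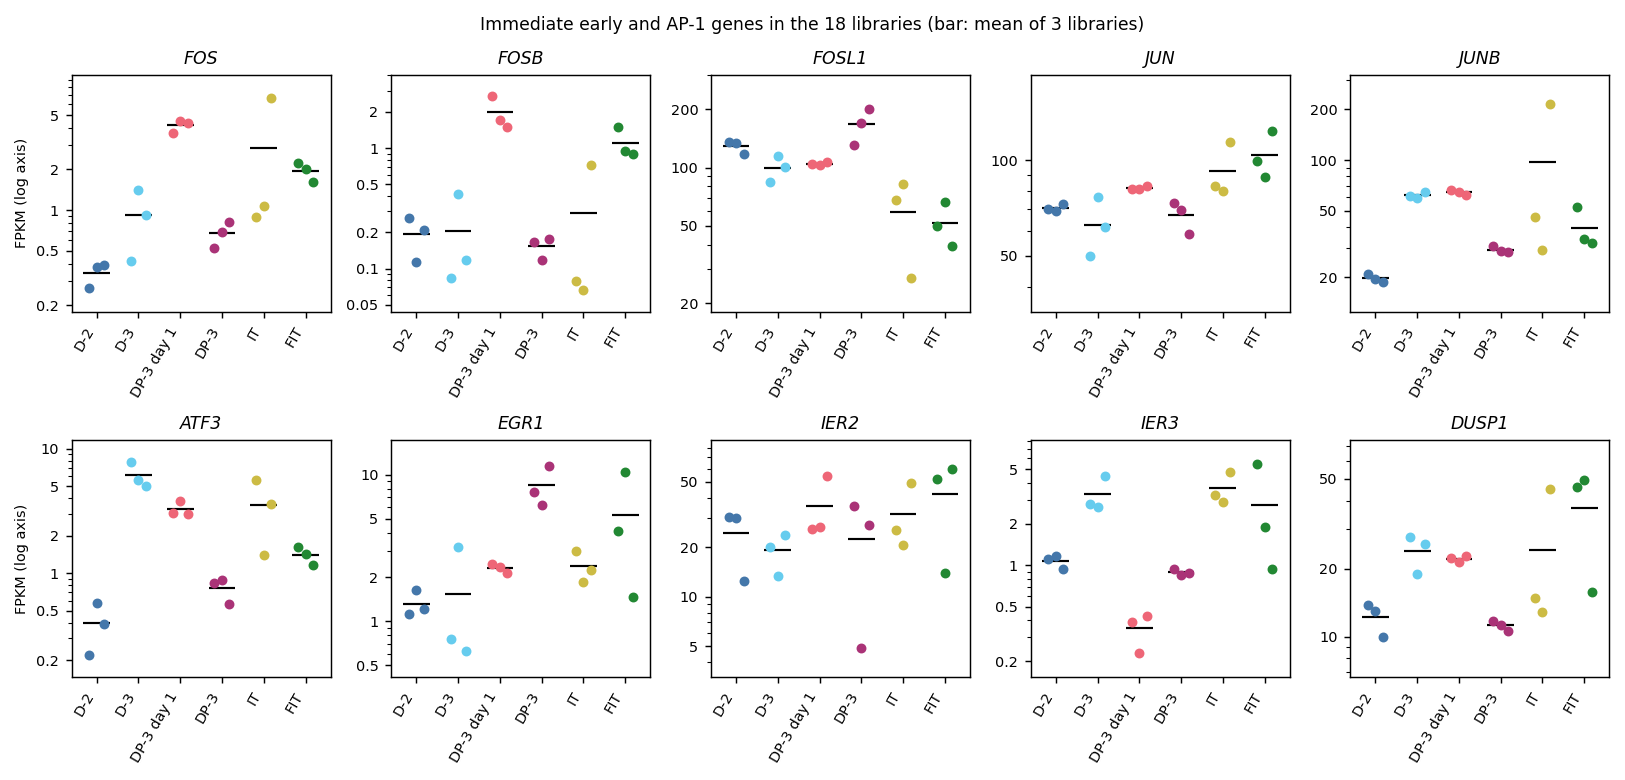
Level of each member in each library, as FPKM on a log axis that is scaled for each gene, with 1 point per library, 3 libraries per group and a bar at the group mean. FOS and FOSB have their highest group means in DP-3 day 1, the highest FOS library is IT replicate 3, FOSL1 is lowest in IT and FIT, ATF3 spans 0.219 to 7.85 FPKM, and IER2 overlaps in all neighbouring groups.

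FOS (ENSG00000170345, chr14:75278826-75282230, plus strand) is the founding member of its family. Its FPKM in DP-3 day 1 was 3.71, 4.51 and 4.40 in replicates 1 to 3. In D-2 it was 0.268, 0.379 and 0.392, and in DP-3 after 14 days it was 0.527, 0.691 and 0.812. Every newly printed library was above every library of both 14-day cultures. FOS was 9.58-fold higher in DP-3 day 1 than in D-2 (log2 3.26 ± 0.19 SE, adjusted p = 4.64e-05) and fell by 2.34 on the log2 scale between day 1 and day 14 of printed culture (SE 0.23, adjusted p = 0.00205). In FIT its FPKM was 2.22, 2.01 and 1.60, above every library of the 14-day cell cultures. It fell by 2.31 on the log2 scale in D-2 against FIT (SE 0.27, adjusted p = 0.00257). The level in D-3 was 0.419, 1.40 and 0.918 FPKM, and its difference from FIT did not pass (log2 −1.15, adjusted p = 0.158). DP-3 day 1 against FIT reached an adjusted p of 0.0255 at a log2 change of 0.997, which was just under the 2-fold limit set for a call.

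FOSB (ENSG00000125740, chr19:45467995-45475179, plus strand) encodes a close relative of FOS. It overlaps ERCC1 on the other strand, and whether strand was used in counting is not stated, so reads of this pair may be mixed. FOSB stood at 2.72, 1.72 and 1.48 FPKM in DP-3 day 1 and at 1.49, 0.938 and 0.886 FPKM in FIT. These ranges overlapped by a narrow margin. In D-2 the values were 0.263, 0.114 and 0.209 FPKM, in D-3 0.0841, 0.413 and 0.118, and in DP-3 0.167, 0.118 and 0.178. All 9 of these libraries lay below the lowest FIT library. FOSB fell against FIT in flat, Matrigel and 14-day printed culture, with log2 changes of −2.32 (adjusted p = 0.00610), −2.46 (adjusted p = 0.0479) and −2.66 (adjusted p = 0.0122). The Matrigel call was lost without D-3 replicate 1, D-3 replicate 3 or any 1 of the FIT libraries, and that of printed culture without DP-3 replicate 1 or FIT replicate 1. It rose 7.98-fold in DP-3 day 1 against D-2 (log2 3.00 ± 0.38 SE, adjusted p = 0.000966). From day 1 to day 14 of printed culture it fell by 3.36 on the log2 scale (SE 0.32, adjusted p = 0.00199), the largest decrease among the members in any comparison.

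FOSL1 (ENSG00000175592, chr11:65892049-65900419, minus strand) encodes FRA-1, which lacks the strong activation domain of FOS. Its FPKM was 131, 170.5 and 201 in DP-3 and 135, 134 and 118 in D-2. In FIT it was 50.0, 66.7 and 39.4, so that both cultures lay above the tumor in every library. FOSL1 rose 2.75-fold in D-2 (log2 1.46 ± 0.21 SE, adjusted p = 0.00399) and 3.51-fold in DP-3 (log2 1.81 ± 0.27 SE, adjusted p = 0.0147) against FIT. D-3 held 84.2, 115 and 100.1 FPKM and DP-3 day 1 held 103.9, 103.4 and 107, also above every FIT library. Their log2 changes from FIT were 0.87 (adjusted p = 0.0616) and 0.89 (adjusted p = 0.0373), under the 2-fold limit.

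Because FPKM is per length, the family members can be set side by side within a library. FOSL1 made up 99.5% to 99.6% of the summed FPKM of FOS, FOSB and FOSL1 in D-2 and 99.5% in each DP-3 library. The share was 94.2% to 94.8% in DP-3 day 1 and 93.1% to 95.8% in FIT. Newly printed tissue and fresh tumor thus held a larger part of FOS and FOSB mRNA than flat culture in every library. JUNB made up 20.4% to 22.9% of the summed FPKM of JUN and JUNB in D-2, 43.7% to 54.9% in D-3 and 42.8% to 45.1% in DP-3 day 1. In DP-3 it was 29.3% to 32.6%, and in FIT 20.5% to 34.6%.

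**Figure D2:**
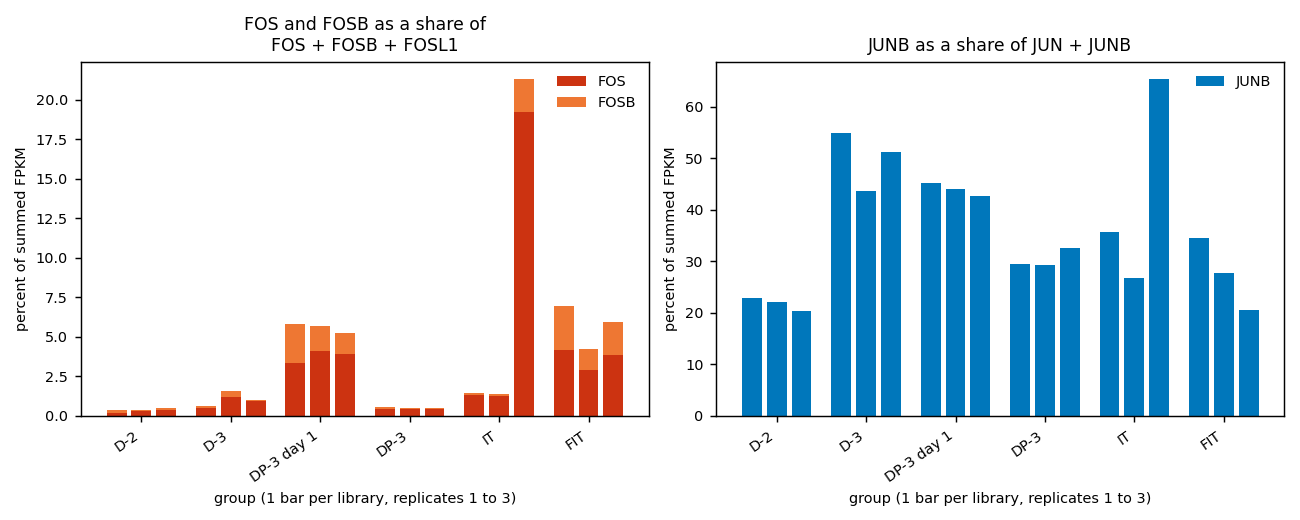
Share of the summed FPKM of a family held by FOS and FOSB (left, of FOS, FOSB and FOSL1, stacked) and by JUNB (right, of JUN and JUNB), in percent, with 1 bar per library and both axes from 0. FOSL1 and JUN make up the rest. FOS and FOSB together stay under 2% in the 14-day cell cultures, and IT replicate 3 stands out in both panels with FOS at 19.2% and JUNB at 65.5%.

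JUN (ENSG00000177606, chr1:58780791-58784047, minus strand), the main AP-1 partner of the FOS proteins, varied least among the members. Its group means ran from 62.6 FPKM in D-3 to 104 in FIT, a range of 1.66-fold, and it was called in none of the pairwise comparisons. It was lower than in FIT at an adjusted p of 0.0493 in D-2 (log2 −0.39) and 0.0485 in D-3 (log2 −0.78). The direction in DP-3 day 1 against D-2 depended on the scale. The log2 change was −0.10 from estimated counts and 0.21 on log2(FPKM + 0.1), where the medians of all genes were 0.09 and 0.35. JUN was thus below the median gene on these scales. It was above the median on log2(FPKM + 1), at 0.21 beside 0.17. With counts of genes that reached a minimum of 1 FPKM it was also above, at 0.056 beside 0.0086.

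JUNB (ENSG00000171223, chr19:12791486-12793315, plus strand) encodes a JUN family member with weaker growth-promoting activity. It overlaps HOOK2 on the other strand. The values were 20.8, 19.6 and 18.7 FPKM in D-2. In D-3 they were 61.0, 59.3 and 64.6 FPKM, and in DP-3 day 1 they were 66.4, 64.1 and 61.8. The ranges of D-3 and DP-3 day 1 lay above that of D-2 without overlap and overlapped each other. JUNB rose 2.63-fold in D-3 against D-2 (log2 1.39 ± 0.10 SE, adjusted p = 0.000800). It rose 2.62-fold in DP-3 day 1 against D-2 (log2 1.39 ± 0.06 SE, adjusted p = 2.00e-05). DP-3 after 14 days held 30.5, 28.9 and 28.2 FPKM, below DP-3 day 1 in every library, at a log2 change of −0.87 (adjusted p = 0.00182) that was under the 2-fold limit. FIT held 52.4, 33.8 and 31.9 FPKM, between these groups.

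ATF3 (ENSG00000162772, chr1:212565334-212620772, plus strand) had the largest span of group means among the members, 15.6-fold. In D-2 it was 0.219, 0.574 and 0.389 FPKM, the lowest of the groups. In D-3 it was 7.85, 5.61 and 4.97 FPKM. No D-3 library came near the D-2 range. ATF3 rose 12.9-fold in D-3 against D-2 (log2 3.69 ± 0.38 SE, adjusted p = 0.00169), the largest increase of a member in any comparison, and 4.17-fold against FIT (log2 2.06 ± 0.26 SE, adjusted p = 0.00541). FIT held 1.61, 1.41 and 1.16 FPKM, and DP-3 day 1 held 3.03, 3.83 and 2.98. DP-3 after 14 days held 0.836, 0.874 and 0.565 FPKM, below both. ATF3 was 6.65-fold higher in DP-3 day 1 than in D-2 (adjusted p = 0.000974) and fell by 1.85 on the log2 scale from day 1 to day 14 (SE 0.21, adjusted p = 0.00275). It also fell by 1.67 in D-2 against FIT (adjusted p = 0.0160).

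EGR1 (ENSG00000120738, chr5:138465479-138469303, plus strand) encodes a zinc finger factor that is a standard readout of ERK and serum response factor. It was 7.56, 6.24 and 11.5 FPKM in DP-3 and 2.47, 2.36 and 2.14 in DP-3 day 1. The ranges did not overlap, and EGR1 rose 4.41-fold between day 1 and day 14 (log2 2.14 ± 0.26 SE, adjusted p = 0.00323). FIT spread from 1.46 to 4.10 to 10.5 FPKM, with the shallowest library lowest, and overlapped DP-3. No comparison of EGR1 with FIT passed. In D-3, replicate 2 held 3.19 FPKM against 0.756 and 0.623 in the others. The same D-3 library was also the highest of its group for FOS, FOSB, FOSL1 and JUN. It was the lowest for JUNB, IER2, IER3 and DUSP1, and in the middle for ATF3.

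IER2 and IER3 are small immediate early proteins, IER2 a nuclear regulator and IER3 a modulator of survival signals. IER2 (ENSG00000160888, chr19:13150411-13154911, plus strand) was called in none of the comparisons. Its lowest library was DP-3 replicate 2 at 4.88 FPKM and its highest FIT replicate 3 at 59.7, and all groups next to each other in the order of means overlapped. IER3 (ENSG00000137331, chr6:30743199-30744548, minus strand) was lowest in DP-3 day 1, at 0.385, 0.230 and 0.428 FPKM, from 19 to 35 estimated counts. In D-2 it was 1.11, 1.16 and 0.938 FPKM, in DP-3 0.932, 0.849 and 0.879, and in D-3 2.78, 2.67 and 4.46. DP-3 day 1 lay below these 3 groups in every library, and D-3 lay above the other 2. IER3 fell by 1.896 on the log2 scale in DP-3 day 1 against D-2 (SE 0.33, adjusted p = 0.00393) and rose 3.02-fold from day 1 to day 14 (adjusted p = 0.0241). It rose 2.59-fold in D-3 against D-2 (log2 1.37 ± 0.30 SE, adjusted p = 0.0123). Both genes overlap antisense transcripts, AC011446.2 and IER3-AS1.

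DUSP1 (ENSG00000120129, chr5:172768096-172771195, minus strand) encodes a phosphatase that switches off ERK, JNK and p38. It overlaps the antisense transcript AC022217.3. Its FPKM was 13.8, 13.0 and 9.93 in D-2 and 11.8, 11.2 and 10.6 in DP-3. In FIT it was 45.9, 49.5 and 15.7, above both cultures, with the shallowest library lowest. DUSP1 fell by 1.46 on the log2 scale in D-2 (SE 0.41, adjusted p = 0.0338) and by 1.61 in DP-3 (SE 0.38, adjusted p = 0.0446) against FIT. D-3, at 27.5, 18.8 and 25.6 FPKM, and DP-3 day 1, at 22.4, 21.4 and 22.6, lay above D-2 in every library. Their log2 changes from D-2, 0.72 (adjusted p = 0.0243) and 0.54 (adjusted p = 0.0117), were under 2-fold.

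**Figure D3:**
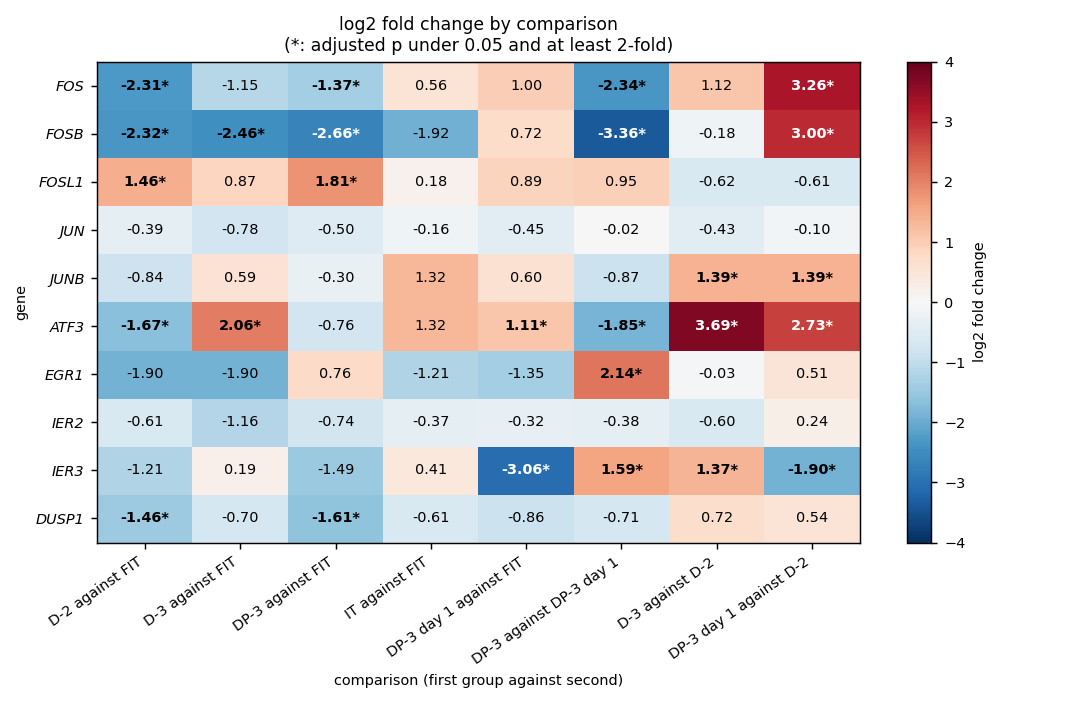
Fitted log2 fold change of each member (rows) in each pairwise comparison (columns), first group against second, with red for higher and blue for lower. An asterisk marks an adjusted p under 0.05 with a change of at least 2-fold. FOS and FOSB reach 3.26 and 3.00 in DP-3 day 1 against D-2, the column of IT against FIT holds no asterisk, and the rows of JUN and IER2 hold none.

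By comparison with the fresh tumor, 5 of the 10 members were called in D-2, with FOSL1 higher and FOS, FOSB, ATF3 and DUSP1 lower, against 14.6% of all genes (3.83% higher and 10.8% lower). The median log2 change of the members was −1.33, and that of all genes −0.09. In DP-3, 4 members were called, with FOSL1 higher and FOS, FOSB and DUSP1 lower, against 4.82% of all genes (1.66% higher and 3.16% lower). In D-3, ATF3 was higher and FOSB lower, 2 members against 6.45% of all genes (4.29% higher and 2.17% lower). After 1 day of printed culture ATF3 was higher, 2.16-fold (adjusted p = 0.0209), and IER3 lower, at a log2 change of −3.06 (SE 0.68, adjusted p = 0.0342), 2 members against 5.03% of all genes (2.89% higher and 2.15% lower). These comparisons share the FIT libraries. Without FIT replicate 1 the DP-3 count was 0, beside 117 of 18753 genes. It was 1 without DP-3 replicate 1, beside 90 of 19400 genes. It was 2 without replicate 2 or replicate 3 of DP-3, or without FIT replicate 2. Beside these stood 242 of 19330, 233 of 19418 and 250 of 18912 genes. With no library left out, 965 of 20039 genes were called in DP-3. Without any 1 of the DP-3 day 1 libraries the DP-3 day 1 count was 0, beside 384 to 387 genes. Without FIT replicate 2 it was 1, beside 664 genes, where 1101 were called with all libraries. The D-3 count was 1 without D-3 replicate 1, D-3 replicate 3 or FIT replicate 1. Beside these stood 347, 240 and 712 genes, where 1399 were called with all libraries. Without FIT replicate 3 the D-2 count was 8, beside 2980 genes. Without D-2 replicate 3 it was 3, beside 2107 genes, where 2846 were called with all libraries. In all of these fits but that without FIT replicate 3, fewer of all genes were called as well. Calls were also lost behind these counts. Those of FOS and DUSP1 in DP-3 were lost without any 1 of the DP-3 libraries or without FIT replicate 1 or replicate 2, and that of FOSL1 in DP-3 without FIT replicate 1. The DUSP1 call in D-2 was lost without any 1 of the D-2 libraries or without FIT replicate 1 or replicate 2, and that of ATF3 in D-2 without D-2 replicate 3. In DP-3 day 1 the call of ATF3 was lost without FIT replicate 2 or replicate 3, and that of IER3 without FIT replicate 1 or replicate 2. The calls that held under every alternative in these comparisons were FOS and FOSL1 in D-2 and ATF3 in D-3.

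In cultured tumor pieces against the fresh tumor, 0 of the 10 members and 0 of 21183 genes were called by edgeR's quasi-likelihood test, a background of 0%. ATF3 was the 1 member with an unadjusted p under 0.05, as had 2693 of all genes, and DESeq2 called 661 genes but 0 members. IT replicate 3 stood apart from the others. It held 6.62 FPKM of FOS against 0.889 and 1.06 in the other IT libraries, 0.717 of FOSB against 0.0788 and 0.0658, 215 of JUNB against 46.0 and 29.1, and 45.1 of DUSP1 against 14.8 and 12.8. FOSL1 was lowest there, at 27.1 FPKM against 68.0 and 82.7. FOS, FOSB, JUNB and DUSP1 were more than 2-fold above both other IT libraries there, as were 8.76% of all genes tested. The lists differed in this. As far above both were 8 of 31 other immediate early genes, 4 of 14 heat shock genes and 2 of 15 AP-1 target genes. The counts were 0 of 10 for other AP-1 and small MAF genes and 0 of 13 for ERK feedback genes. Of these 13, 10 were lowest in replicate 3, as were 8467 of all 21183 genes tested. With IT replicate 3 the log2 change of FOS against FIT was 0.56, and without it −0.99. For JUNB it was 1.32 with the library and −0.07 without it.

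In the 3 comparisons that leave out the tumor, the counts moved less when 1 library was left out. For DP-3 day 1 against D-2, FOS, FOSB, JUNB and ATF3 were higher and IER3 lower, 5 of 10 members against 17.2% of all genes (13.1% higher and 4.13% lower), and the count was 5 whichever library was left out. In DP-3 against DP-3 day 1, EGR1 and IER3 were higher and FOS, FOSB and ATF3 lower, 5 members against 7.56% of all genes (1.81% higher and 5.76% lower), with 4 to 5 when 1 library was left out. The IER3 call was lost without any 1 of the DP-3 day 1 libraries or DP-3 replicate 1. In D-3 against D-2, JUNB, ATF3 and IER3 were higher, 3 members against 18.5% of all genes (14.6% higher and 3.95% lower), with 3 to 4. Of all genes, the fits with 1 library left out called 2307 to 3454, 744 to 1585 and 2139 to 3519 in these 3 comparisons. The higher number of genes detected in the DP-3 day 1 libraries moves with that group, and its part in these values was not tested.

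Other genes of the same kind were read from lists. Of 30 other immediate early genes tested in DP-3 day 1 against D-2, 8 rose and 2 fell, against 13.1% and 4.13% of all genes, with a median log2 change of 0.67 beside 0.09 for all genes. ARC, a synaptic immediate early gene, rose 5.68-fold and NR4A2, an orphan nuclear receptor, rose 5.60-fold. CCN2, a secreted target of YAP, fell by 2.82 on the log2 scale. Between day 1 and day 14 of printed culture, 2 of 31 rose and 10 fell, against 1.81% and 5.76% of all genes, among them ARC by 2.87 and SIK1, a salt-inducible kinase, by 1.74, while CCN2 rose 4.52-fold. In D-3 against D-2, 7 of 30 rose and 2 fell, against 14.6% and 3.95% of all genes. ZFP36, which destabilises AU-rich mRNAs, rose 3.41-fold and PPP1R15A, a stress-induced phosphatase subunit, 3.35-fold, while CCN2 fell by 3.03.

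Against FIT, 3 of 30 of the same list rose and 7 fell in D-2, beside 3.83% and 10.8% of all genes, with NR4A2 lower by a log2 change of −2.46 and KLF4, a zinc finger factor, by −1.81. In D-3, 3 of 31 rose and 3 fell, beside 4.29% and 2.17% of all genes. In DP-3, 4 rose and 2 fell, beside 1.66% and 3.16%. In DP-3 day 1, 6 rose and 1 fell, beside 2.89% and 2.15%, with ARC 6.39-fold and KLF2 4.25-fold higher. In IT, 0 of 31 were called by edgeR and 1 by DESeq2, and 5 had an unadjusted p under 0.05. The list thus held genes that moved with FOS and others, CCN1 and CCN2 among them, that moved the opposite way in flat culture.

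JUND, the JUN family member that is present in resting cells, was the AP-1 gene outside the 10 with the most calls. Its FPKM was 11.2, 11.03 and 11.5 in D-2 and 53.3, 31.6 and 39.2 in D-3, without overlap. It rose 3.08-fold in D-3 (adjusted p = 0.00232) and 2.81-fold in DP-3 day 1 (adjusted p = 2.12e-05) against D-2. Against FIT it fell by 1.65 on the log2 scale in D-2 and by 1.07 in DP-3. JDP2, a repressor of AP-1, rose 2.53-fold in D-3 against D-2 and 2.86-fold in D-3 against FIT, and MAFF, a small MAF protein, fell by 1.95 between day 1 and day 14 of printed culture. MAFK, another small MAF protein, fell by 1.38 in D-2 and by 1.05 in DP-3 day 1 against FIT, and BATF3 fell by 1.64 in DP-3 day 1 against D-2. Of the 10 such genes tested, no more than 2 were called in any pairwise comparison, where 0% to 18.5% of all genes were.

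**Figure D4:**
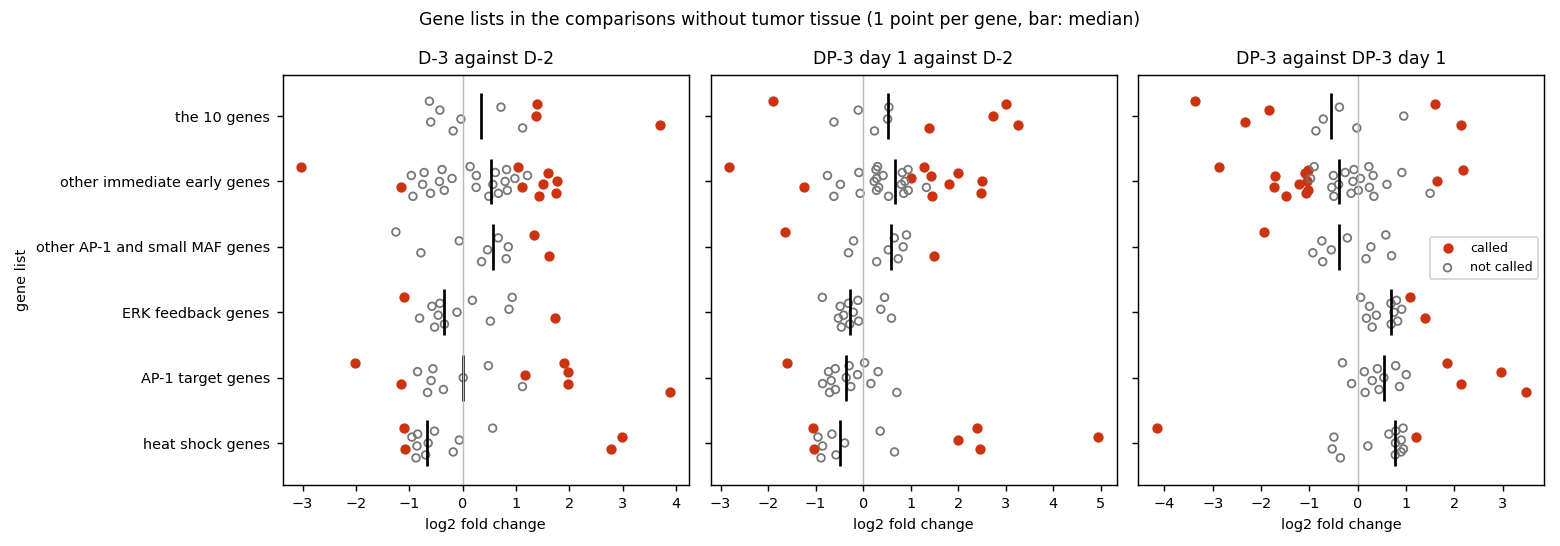
Log2 fold change of each gene in the 3 comparisons that do not involve the tumor, by gene list, with filled points for called genes, open points for the others and a bar at the list median. In DP-3 day 1 against D-2 the medians of the 10 genes and of the other immediate early genes are 0.53 and 0.67, and in DP-3 against DP-3 day 1 they are −0.55 and −0.40.

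Heat shock genes, which report protein damage, gave another reading of stress. HSPA6, a heat shock protein 70 that is nearly absent without stress, was 10.3, 9.42 and 8.76 FPKM in DP-3 day 1 and 0.233, 0.207 and 0.297 in D-2. It rose 30.8-fold (log2 4.94 ± 0.18 SE, adjusted p = 1.76e-05), and fell by 4.16 between day 1 and day 14. CRYAB, a small heat shock protein, also rose in both D-3 and DP-3 day 1 against D-2. HSPA1A and HSPA1B rose in DP-3 day 1 against D-2, but reads of these near-identical copies cannot be assigned to 1 of them with certainty. In all, 4 of 14 heat shock genes rose and 2 fell in that comparison, against 13.1% and 4.13% of all genes, with a median log2 change of −0.48, opposite in sign to the members. In D-3 against D-2, 2 of 14 rose, a share close to the 14.6% of all genes, and 2 fell, beside 3.95%. Against FIT, 5 of 13 rose and 3 fell in D-2, beside 3.83% and 10.8% of all genes. In DP-3, 5 of 14 rose and 0 fell, beside 1.66% and 3.16%, with HSP90AA1 2.67-fold higher.

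A list of ERK feedback genes held sprouty, SPRED and DUSP genes, which are negative regulators of the pathway, and ETV4, ETV5, PHLDA1 and ERRFI1, which it induces. From 0 to 4 of its 13 tested genes were called in each comparison. None, 0 of 13, was called in DP-3 day 1 against D-2 by edgeR's quasi-likelihood test and 0 by DESeq2, where 17.2% of all genes were called, with a median log2 change of −0.28. An unadjusted p under 0.05 was found for 10 of them, all at changes smaller than 2-fold. Between day 1 and day 14 DUSP6, the ERK phosphatase, rose 2.62-fold (adjusted p = 0.00141) and SPRED2 rose 2.12-fold (adjusted p = 0.0140), in the same direction as EGR1, and 0 fell, beside 1.81% of all genes higher and 5.76% lower. In D-3 against FIT, 4 of 13 fell, beside 2.17% of all genes, among them DUSP4 at a log2 change of −1.67 and SPRED3 at −1.196. In D-3 against D-2, DUSP5 rose 3.33-fold and DUSP4 fell by 1.10, 1 gene each way beside 14.6% and 3.95% of all genes.

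Known AP-1 target genes moved by gene and by group. MMP3, the stromelysin protease, was 0.189, 0.252 and 0.320 FPKM in FIT and 29.3, 31.6 and 52.4 in D-3. It rose in all 4 cell cultures against FIT, in the order D-2, D-3, DP-3 and DP-3 day 1 by 35.1-fold, 144-fold, 63.9-fold and 59.7-fold. The IT libraries, at 3.11, 12.8 and 26.3 FPKM, also lay above every FIT library. In IT against FIT edgeR called 0 of the 15 targets, and DESeq2 called 3, all higher. IL6, the inflammatory cytokine, rose 14.8-fold in D-3 against D-2 (adjusted p = 0.00128). Between day 1 and day 14 of printed culture 4 of 15 rose and 0 fell, beside 1.81% and 5.76% of all genes, with MMP13, a collagenase, 11.2-fold, CXCL8, a neutrophil chemokine, 7.74-fold and MMP1 4.42-fold higher, while FOS and FOSB fell. Of 15 targets in DP-3 day 1 against D-2, 0 rose and CXCL8 alone fell, by 1.60, beside 13.1% and 4.13% of all genes.

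The genes with the pattern most like FOS over the 18 libraries were AP4B1-AS1, NR4A2 and SNORA66. Likeness was the root-mean-square difference of log2(FPKM + 0.1) values centred on each gene, and was 0.62, 0.66 and 0.68 for these, beside a median of 1.27 over 14200 genes. For FOSL1 they were SORD2P, DTL and ESF1, at 0.30, 0.31 and 0.35 beside a median of 0.83. Of these 6, NR4A2 was on a list of immediate early genes.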

How the data were processed

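The 18 libraries were assigned to groups by the titles of the sample records. The authors trimmed reads with cutadapt 1.9, aligned them with HISAT2 2.0.4 and assembled transcripts with StringTie 1.3.4d, per the submitters' processing notes. They deposited FPKM, normalized for length and depth, and an estimated count per gene and library. How the counts were made and the genome build are not given in the sources used here. Gene positions overlapped those of GENCODE release 29, a GRCh38 annotation, for 99.9% of 48223 genes found there, and 67.9% had the same ends. No 2 libraries of a group held identical values, and every such pair differed by more than counting noise.

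Estimated counts were rounded and tested with edgeR 4.0.16 in R 4.3.3 (TMM, estimateDisp, glmQLFit, glmQLFTest, default settings), with a separate fit of 6 libraries for every pair of groups. A gene was tested if 3 or more libraries reached 0.1 FPKM, all p-values were adjusted by the Benjamini-Hochberg method over all genes tested, and a gene was called at an adjusted p below 0.05 and a change of at least 2-fold. The test over the 6 groups used all 18 libraries and no limit on the fold. Scripts were tested on simulated data. Alternatives were DESeq2 1.42.0, limma 3.58.1 on log2(FPKM + 0.1) and log2(FPKM + 1), median-of-ratios scaling, other filters, 1 fit of all 18 libraries, a replicate block and leaving out each library. A fit without the DP-3 day 1 libraries was chosen after seeing the data, as was the account of IT replicate 3. The 10 members and the gene lists were chosen with earlier results of these data known. All 10 members are named, and from each list at most the 3 called genes with the largest change in a comparison. CCN1 and, in DP-3 day 1 against D-2, CRYAB fell outside this limit and were named after their values were seen. No value of the authors' own comparisons was used.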

Additional observations from a re-analysis of the deposited data

Results flagged for a closer look

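For 3 members, every library of one culture lay above every FIT library while every library of another lay below. How many of all genes did so was not counted. Ranges apart from FIT, on either side, were found for 49.9% of all genes in D-2 and 32.4% in D-3. The shares were 34.1% in DP-3 and 34% in DP-3 day 1. For FOS, DP-3 day 1 was above FIT and D-2, D-3 and DP-3 were below. The fitted log2 difference of DP-3 day 1 was 3.26 from D-2 and 2.34 from DP-3, both past the threshold of edgeR's quasi-likelihood test, and 2.21 from D-3, a ratio of mean FPKM that was not tested. For JUNB, D-3 and DP-3 day 1 were above FIT and D-2 and DP-3 below. D-3 differed by a fitted 1.39 from D-2, which passed, and by 1.08 in mean FPKM from DP-3, which was not tested. DP-3 day 1 differed by 1.39 from D-2 and 0.87 from DP-3, both at an adjusted p under 0.05. For ATF3 the same 2 cultures were above FIT. D-3 differed by a fitted 3.69 from D-2, which passed, and by 3.02 in mean FPKM from DP-3, which was not tested. DP-3 day 1 differed by 2.73 from D-2 and 1.85 from DP-3, and both passed. With 3 libraries in each group, no library was tested as an outlier.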

How the results depend on the processing

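Of 1110 member values recomputed under other settings, 993 kept their direction and side of the threshold, 30 became calls, 62 lost a call and 25 changed sign. None of the 26 called values changed sign, and 14 of them were called in every setting. With limma on log2(FPKM + 1) the number of members called against FIT was 2 for D-2 and 1 for each of the other cell cultures, a scale that by its construction compresses the change of genes under 1 FPKM. With an FPKM minimum of 1 the D-3 count was 1, beside 1086 of 12888 genes. FOSB was then not tested in D-3 against FIT, because FIT replicate 1 alone reached that minimum, at 1.49 FPKM. With 1 fit of 18 libraries the DP-3 day 1 count was 1, beside 1248 of 21869 genes. The causes of the other changes were not tested. When 1 library was left out the counts against FIT were 3 to 8 for D-2, 1 to 3 for Matrigel culture, 0 to 5 for DP-3, 0 to 3 for DP-3 day 1 and 0 to 0 for IT. Of all genes, the same fits called 1755 to 2980, 240 to 1495, 90 to 1438, 384 to 1714 and 0 to 1. The member counts were 8 to 9 over the 6 groups, where 7924 to 10147 of all genes passed. They were 4 to 5 in DP-3 against DP-3 day 1, 3 to 4 in D-3 against D-2 and 5 to 5 in DP-3 day 1 against D-2. The replicate numbers did not pair the libraries, with correlations of same-numbered deviations of −0.044 to 0.043. This looked at matching numbers alone and cannot tell whether IT and FIT libraries shared tumors. With the replicate block the count was 0 in DP-3 and 0 in DP-3 day 1 against FIT, 5 in D-2 against FIT, 2 in D-3 against FIT and 8 over the 6 groups. Of all genes, 164, 656, 2177, 904 and 8923 were called with the block, in the same order. On log2(FPKM + 0.1) the median of all genes was 0.30 in D-3 against D-2, 0.35 in DP-3 day 1 against D-2 and −0.29 in DP-3 against DP-3 day 1, and the share of all calls that were higher went from 76.0% to 93.3% in DP-3 day 1 against D-2 and from 23.9% to 6.7% in DP-3 against DP-3 day 1.

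No value that changed sign was a call. Leaving out 1 library moved the log2 change of EGR1 in D-3 against D-2 between −1.15 without D-3 replicate 2 and 0.38 without D-3 replicate 3, and that of FOSB between −1.15 and 0.22. IER3 in D-3 against FIT ran from −0.22 to 1.09. In DP-3 against DP-3 day 1, IER2 ran from −0.829 to 0.097 and JUN from −0.0770 to 0.0397. IER2 ran from −0.16 to 0.46 in DP-3 day 1 against D-2 and from −0.75 to 0.018 against FIT. In IT against FIT, FOS ran from −0.99 to 0.997, JUNB from −0.0722 to 1.78, both lowest without IT replicate 3, and FOSL1 from −0.14 to 0.52. With an FPKM minimum of 1, EGR1 in D-3 against D-2 was 0.11 and JUN in DP-3 day 1 against D-2 was 0.056. With limma JUN there was 0.21 at either pseudocount, FOSB in D-3 against D-2 was 0.0035 on log2(FPKM + 1), and FOS in IT against FIT was −0.035 on log2(FPKM + 0.1). With no filter JUN in DP-3 against DP-3 day 1 was 0.035, and with the replicate block FOS in IT against FIT was −0.15. FIT replicate 3 was the shallowest library, which limits the precision of low genes there. It held 36 estimated counts of IER3, 144 of FOS and 139 of FOSB. The deeper D-2 libraries held 79 to 120 of FOS, and those of DP-3 held 64 to 82 of FOSB.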
